A study of Mus musculus with 13 samples.

Results

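The comparison concerns 2 groups of normal epithelium from the mouse small intestine, one with high and one with low FP expression. It used every array labelled FP_hi or FP_lo, 10 of the 13 arrays of the series, 4 FP-high (replicates 1 to 4) and 6 FP-low (replicates 1 to 6). The 3 adenoma arrays were not used in it. All mice were Apc mutants crossed with FP transgenic mice. Loss of Apc, which restrains Wnt signalling, starts adenomas in such animals, and the epithelium sampled lay beside adenomas. FP is not spelled out in the sources used here, nor are the promoter of the transgene, the ages and sexes, or the animal behind each array. Crypts were collected with capillaries 40 µm wide, and amplified cDNA from their RNA was hybridised to Affymetrix Mouse Gene 1.0 ST arrays, with each sample on an array of its own. The title of the series concerns expression signatures of aging that come before intestinal tumours. Since separate animals are not stated, the p-values reflect only how these samples vary, in part perhaps for technical reasons.

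A crypt is a pocket of epithelium with stem cells and antimicrobial Paneth cells at its base. Above them lie rapidly dividing progenitors, whose daughters stop dividing as they move up and become absorptive enterocytes or mucus-filled goblet cells. Division genes therefore mark the lower and middle crypt, and genes of digestion and uptake mark its mouth and the villus. In such bulk samples, fewer cells of a type cannot be told apart from less RNA per cell. The labelled tissue was checked against its markers. Epcam, the general epithelial adhesion gene, lay at log2 levels of 7.58, 9.24, 9.15 and 8.85 in FP-high replicates 1 to 4 and at 9.03 to 9.58 (median 9.16) in FP-low samples. The Paneth cell gene Lyz1 and the stem cell gene Olfm4 were bright, and so was Fabp1, the fatty acid binding protein of enterocytes, at 9.78 or more in every array. The samples thus held transcripts of absorptive cells as well as crypt base cells.

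The array of FP-high replicate 1 differed in shape from the rest. Its deposited values were compressed, with an SD over probe sets of 1.11 log2 units against 1.75 to 1.96 in the other 9. Only 222 of its probe sets lay above a log2 level of 9, against 717 to 939 elsewhere. It correlated with the other arrays at 0.716 to 0.746 across probe sets, whereas FP-high replicates 2 to 4 correlated with FP-low arrays at 0.929 to 0.968 and FP-low arrays with each other at 0.944 to 0.981. A compressed array reads bright genes low and dim genes high. Each result is therefore given with all 10 arrays and with the 9 that remain without it.

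The level of a probe set went along with its difference. When the tested probe sets were divided into 5 groups of equal size by mean FP-low level, the median FP-high minus FP-low difference ran from 0.27 in the dimmest group to -0.63 in the brightest with 10 arrays. With 9 arrays it ran only from 0.05 to -0.17. In the brightest group, at log2 levels from 6.07 to 13.1, 92.5% of probe sets were lower in FP-high samples with 10 arrays and 68.9% with 9. A list of bright genes therefore has to be read against that group as well as against all genes.

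**Figure D1:**
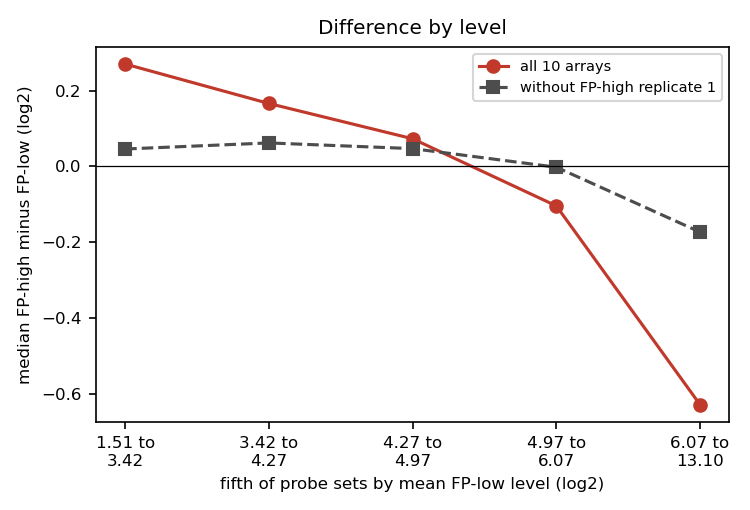
The median log2 difference, FP-high minus FP-low, on the vertical axis is plotted for 5 equal groups of probe sets by mean FP-low log2 level on the horizontal axis, with all 10 arrays (circles) and without FP-high replicate 1 (squares). The brightest group lies at -0.63 with all arrays and at -0.17 without that array.

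No single gene passed the test. Limma called 0 of 21789 probe sets at a Benjamini-Hochberg adjusted p under 0.05 with 10 arrays (percent called 0.0, smallest adjusted p 0.147) and 0 with 9 (smallest adjusted p 0.183). At an unadjusted p under 0.05 there were 2035 probe sets (9.34%) with 10 arrays, 614 higher and 1421 lower in FP-high samples. With 9 arrays there were 1649 (7.57%), 636 higher and 1013 lower. The values of the groups did not overlap for 495 probe sets (2.27%) with 10 arrays and for 709 (3.25%) with 9. All differences below are values that did not pass over all probe sets, given in log2 units with the standard error (SE) from limma. A gene is said to overlap when the FP-high and FP-low arrays do not separate fully.

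Genes of mitosis had lower means in FP-high samples without exception. All 40 measured genes for the spindle, kinetochore and condensin were lower, with a median difference of -1.03 with 10 arrays and -0.77 with 9, where all 40 were again lower. Over all probe sets the medians were 0.05 and 0.02, and 43.5% and 45.4% were lower. The median FP-low level of the list was 7.02, so it also has to be set beside the brightest group, whose medians were -0.63 and -0.17 and where 92.5% and 68.9% were lower. Of the 40 genes, 31 had an unadjusted p under 0.05 on the lower side, where 6.52% of all probe sets did. With 9 arrays it was 23 genes, against 4.65%. The groups did not overlap for 11 of the 40, all lower, in both fits, against 1.51% and 1.82% of all probe sets. These 11 were the kinases Plk1 and Aurka, the kinetochore genes Nuf2 and Knl1, the spindle genes Kif23, Tpx2, Prc1 and Hmmr, the condensin genes Ncapg2 and Smc4, and the DNA untangling enzyme Top2a.

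Knl1 encodes the scaffold that carries checkpoint proteins at the kinetochore. Its log2 level was 3.75, 5.27, 4.62 and 5.65 in FP-high replicates 1 to 4 and 6.48 to 7.57 (median 7.26) in FP-low samples. Every FP-high array lay below every FP-low array, replicate 1 farthest. The difference was -2.36 ± 0.35 (SE) with 10 arrays (limma, adjusted p = 0.147) and -2.0 ± 0.27 with 9 (adjusted p = 0.183).

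Ncapg2, a subunit of condensin II, which compacts chromosomes, was at 4.28, 3.91, 4.63 and 3.98 in FP-high samples and at 5.51 to 6.26 (median 5.54) in FP-low samples. Here replicate 1 sat among its group, and the groups did not overlap. The difference was -1.55 ± 0.22 (SE; limma, adjusted p = 0.147) and stayed at -1.57 ± 0.23 without that array. Hmmr, a spindle assembly factor, was at 5.05, 5.26, 5.61 and 4.67 against 6.12 to 6.48 (median 6.29), and Nuf2, which links kinetochores to microtubules, was at 5.27, 5.78, 5.26 and 4.99 against 6.17 to 6.69 (median 6.52). For both genes the FP-low arrays lay within a narrow band above all FP-high arrays, with differences of -1.14 ± 0.18 for Hmmr and -1.14 ± 0.19 for Nuf2. The proliferation antigen Mki67 was more scattered, at 5.80, 6.81, 7.38 and 5.14 against 6.96 to 8.44 (median 7.66), and overlapped because of FP-high replicate 3. Outside the list, the kinetochore gene Cenph differed by -1.96 ± 0.32 with 10 arrays and -2.06 ± 0.35 with 9, with no overlap. Shcbp1, which acts at the midbody of dividing cells, differed by -1.80 ± 0.35 and -1.76 ± 0.39, again with no overlap.

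As a whole, the mitosis list separated the groups in every array. Its mean log2 level was 5.26, 6.42, 6.67 and 5.91 in FP-high replicates 1 to 4 and 6.75 to 7.29 in FP-low samples. FP-high replicate 3 came closest, just below FP-low replicate 5. Replicate 4 was the lowest after replicate 1.

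**Figure D2:**
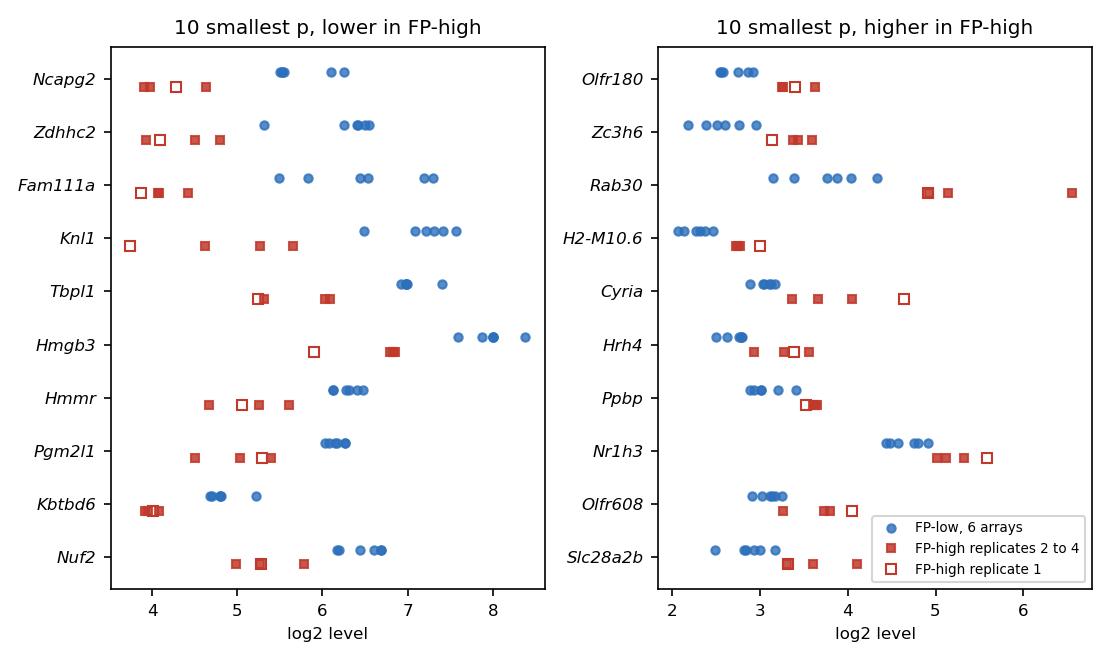
Log2 levels in each array are plotted for the 10 lower and the 10 higher genes with the smallest limma p among those whose groups did not overlap. Filled squares are FP-high replicates 2 to 4, open squares FP-high replicate 1 and circles the 6 FP-low arrays; the genes were chosen for separation, so the gaps are a description.

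The promoters of these genes are shown because all members of the mitosis list had lower means and such genes are known to share regulatory elements. In cell cycle genes, the CCAAT box is bound by the factor NF-Y, and the element TTTGAA, the cell cycle genes homology region, is bound by the DREAM and MuvB complexes. The windows run from 250 bases before the start of the gene to 50 after it, from RefSeq on GRCm38.p6, 5′ to 3′ on the strand of the gene, with both motifs (searched on both strands, so that the CCAAT box can read ATTGG, and allowed to overlap) in capitals. Ncapg2 is at chr12:116405186-116405485 (plus strand), Knl1 at chr2:119046869-119047168 (plus strand) and Hmmr at chr11:40733388-40733687 (minus strand).
Ncapg2: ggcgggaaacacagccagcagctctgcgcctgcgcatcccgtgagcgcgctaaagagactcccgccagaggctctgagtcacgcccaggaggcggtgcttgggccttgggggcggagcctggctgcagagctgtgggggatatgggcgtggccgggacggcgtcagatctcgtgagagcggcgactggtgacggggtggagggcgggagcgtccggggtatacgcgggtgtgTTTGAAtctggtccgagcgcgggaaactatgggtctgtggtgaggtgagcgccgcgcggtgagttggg
Knl1: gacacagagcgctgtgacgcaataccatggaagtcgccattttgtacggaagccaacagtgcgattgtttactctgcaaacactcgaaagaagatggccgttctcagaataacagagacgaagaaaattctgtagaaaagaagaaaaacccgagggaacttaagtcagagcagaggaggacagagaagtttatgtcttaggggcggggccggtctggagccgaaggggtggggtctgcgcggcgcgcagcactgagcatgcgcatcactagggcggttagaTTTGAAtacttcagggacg
Hmmr: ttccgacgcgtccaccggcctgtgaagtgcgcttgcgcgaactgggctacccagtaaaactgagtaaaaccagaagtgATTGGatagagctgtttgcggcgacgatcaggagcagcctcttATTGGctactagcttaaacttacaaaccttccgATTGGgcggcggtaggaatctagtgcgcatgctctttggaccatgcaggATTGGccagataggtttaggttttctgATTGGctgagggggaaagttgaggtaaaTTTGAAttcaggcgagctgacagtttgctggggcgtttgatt

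With the start site counted as base 1 and no base 0, the TTTGAA element began at -18 in Ncapg2, at 32 in Knl1 and at 9 in Hmmr. Hmmr also held 5 CCAAT boxes, at -172, -129, -96, -47 and -20, and the other windows shown held none. Nuf2, whose difference was as large as that of Hmmr, held neither motif in its window at chr1:169531415-169531714. Across the list, 33 of 40 genes had a window, and 35 windows were searched. TTTGAA lay in 80.0% of them against 14.8% of the 19177 windows of all measured genes, CCAAT in 74.3% against 37.4%, and both in 68.6% against 5.8%. The mitosis windows were also rich in CpG, with a median of 24 CpG dinucleotides against 15. The list was assembled from mitotic genes, so these shares describe that class and not the comparison.

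The share of the motifs was smaller among genes picked by the arrays alone. Of 285 windows of genes whose groups did not overlap on the lower side with 10 arrays, 13.3% held both motifs, and of 145 windows on the higher side 6.2% did. With 9 arrays it was 12.1% of 354 and 5.7% of 279. CpG content differed along with direction: the median was 22 on the lower side and 7 on the higher side with 10 arrays, and 21 and 9 with 9. Promoters poor in CpG also belonged to dimmer genes, with a median FP-low level of 3.13 at 2 or fewer CpG against 5.26 at 24 or more, and the part of level in this was not tested.

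Genes that copy DNA lay lower too, but less far. Of 41 replication and nucleotide supply genes, 35 were lower with a median of -0.59 with 10 arrays and 36 with a median of -0.40 with 9. The median FP-low level of the list was 6.06, at the border between the brightest group and the next. In the brightest group 92.5% of probe sets were lower (median -0.63), and 68.9% with 9 arrays (median -0.17). In the next it was 64.4% (median -0.10), and 50.4% with 9 arrays (median -0.002). The groups did not overlap for 7 of the 41 genes with 10 arrays and 8 with 9, all lower, against 1.51% and 1.82% of all probe sets. The list mean was 4.98, 5.68, 6.01 and 5.41 in FP-high samples and 6.06 to 6.34 in FP-low samples, so that it did not overlap either, although FP-high replicate 3 came close to the lowest FP-low array. Mcm4, a subunit of the replicative helicase, was at 4.62, 5.37, 5.67 and 5.76 against 6.20 to 6.84 (median 6.61). Tyms, which makes thymidylate for DNA, was at 6.55, 6.11, 6.08 and 5.68 against 6.63 to 7.09 (median 7.02). In Tyms replicate 1 was the closest to the FP-low arrays, and the difference was -0.83 ± 0.18 with it and -0.98 ± 0.15 without it. Pola1, the catalytic subunit of the primer-making polymerase, differed by -1.33 ± 0.27 and -1.19 ± 0.27, and Dbf4, the activator of the kinase that fires origins, by -1.56 ± 0.33 and -1.50 ± 0.36.

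Regulators of S phase and repair genes followed the same direction with more overlap. Of 22 G1 and S phase regulators 19 were lower (median -0.60), and 17 with 9 arrays (median -0.31). Foxm1, the transcription factor of the mitotic programme, was at 3.26, 4.93, 3.96 and 4.09 against 4.38 to 6.21 (median 5.42) and overlapped through FP-high replicate 2. Cdk2, the S phase kinase, was at 3.85, 5.75, 5.42 and 5.34 against 5.80 to 7.06 (median 6.17), with replicate 2 just under the lowest FP-low array. Of 24 repair genes 20 were lower (median -0.51), and 22 with 9 arrays (median -0.36). None of them separated the groups, where 1.51% and 1.82% of all probe sets did on the lower side. The checkpoint kinase Chek1 was at 3.94, 4.12, 6.09 and 4.19 against 5.20 to 6.72, FP-high replicate 3 lying among the FP-low arrays. Topbp1, which helps to switch on checkpoint signalling, differed by -1.14 ± 0.36 and -0.77 ± 0.29.

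**Figure D3:**
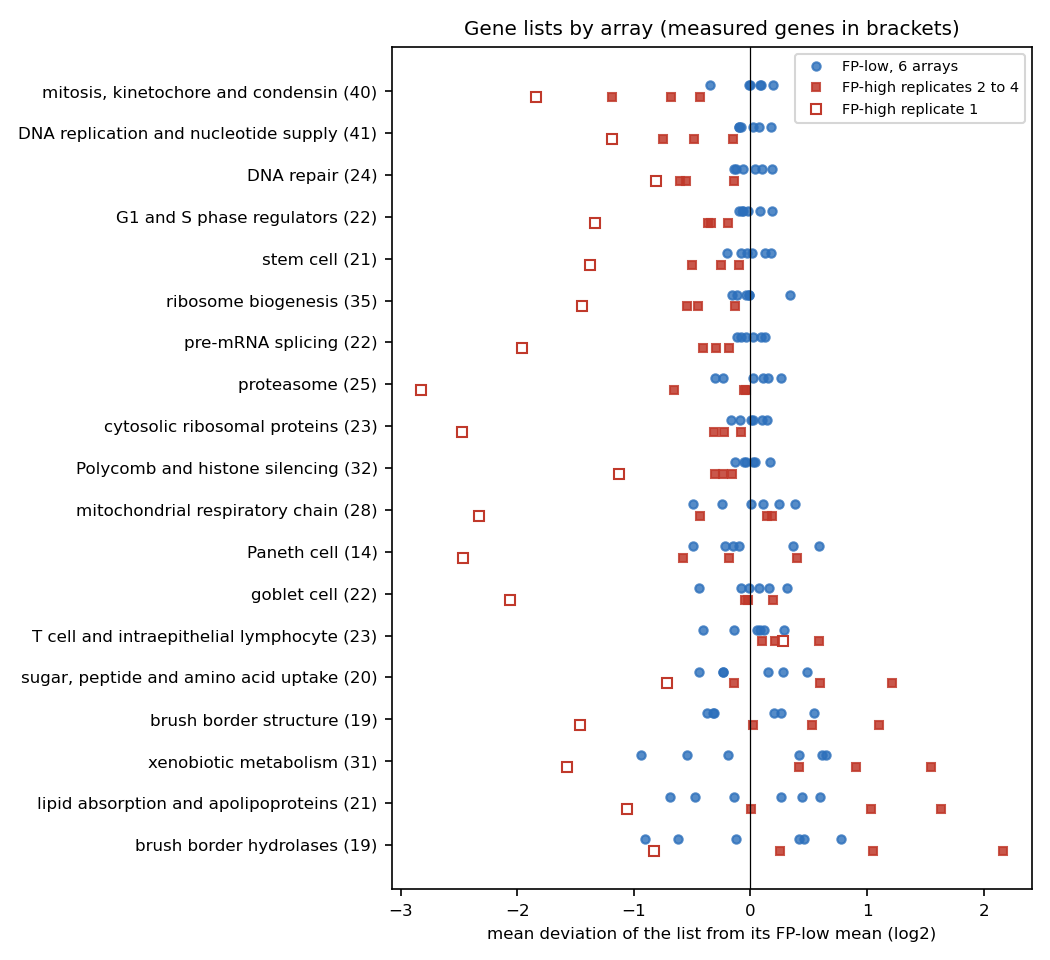
The mean deviation of each gene list from its FP-low mean (log2) on the horizontal axis is plotted per array for 19 lists, with the number of measured genes in brackets. FP-high arrays (squares, replicate 1 open) lie below all FP-low arrays (circles) for mitosis, where they run from -1.84 to -0.43, and spread to both sides of them for brush border hydrolases, from -0.83 to 2.17.

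Most stem cell genes had lower means in FP-high samples. The groups overlapped for each of them, which lies near the share over all probe sets. Of these, 1.51% separated on the lower side with 10 arrays and 1.82% with 9. All 21 were lower with 10 arrays (median -0.48) and 16 with 9 (median -0.40), and 7 and 5 of them had an unadjusted p under 0.05, against 6.52% and 4.65% of all probe sets on the lower side. Lgr5, the receptor that marks crypt base stem cells, was at 4.91, 5.64, 5.62 and 5.86 in FP-high samples and at 5.72 to 6.92 (median 6.26) in FP-low samples. The FP-high arrays lay at the low end, and replicate 4 was within the FP-low range. Olfm4 was at 6.61, 9.74, 10.22 and 10.08 against 9.81 to 10.87 (median 10.56), with replicate 1 far below the rest, and its difference was -1.26 ± 0.62 with that array and -0.40 ± 0.23 without it. The hyaluronan receptor Cd44 differed by -1.08 ± 0.36 and -0.86 ± 0.37, and the growth factor receptor inhibitor Lrig1 by -0.75 ± 0.26 and -0.45 ± 0.18.

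The Wnt pathway itself showed little displacement as a list. Of 28 Wnt targets 19 were lower, with a median of -0.13, and 18 with 9 arrays, with a median of -0.06. Of 29 receptors and destruction complex genes 22 were lower (median -0.20), and 14 with 9 arrays (median 0.02). Dvl3, a Dishevelled protein that relays the Wnt signal inside the cell, was at 3.09, 4.88, 4.82 and 4.82 against 4.99 to 5.82 (median 5.33). Its difference was -0.98 ± 0.35 and -0.55 ± 0.20. In both fits it was the only 1 of these 29 genes whose groups did not overlap. Of all probe sets, 1.51% and 1.82% separated on the lower side. Apc was at 5.48, 5.59, 5.79 and 6.21 against 5.42 to 6.12 (median 5.90), with full overlap and a difference of -0.06 ± 0.19 with 10 arrays and 0.03 ± 0.19 with 9. Ctnnb1, which encodes beta-catenin, differed by -0.47 ± 0.40 with replicate 1 and 0.04 ± 0.22 without it. Lrp6, a Wnt co-receptor, lay at 4.77, 5.92, 6.34 and 6.04 against 6.33 to 7.32, and Myc, a target in the crypt, at 5.27, 6.18, 7.24 and 7.27 against 7.09 to 7.66. In both genes the upper FP-high arrays reached the lowest FP-low array. Among 23 genes of EGF signalling and its feedback, 1 had groups that did not overlap in both fits, against the same shares of all probe sets. This was Spred2, an inhibitor of MAPK signalling. It was at 6.83, 7.17, 6.77 and 5.72 against 7.87 to 8.83 (median 8.07), a difference of -1.56 ± 0.29 with 10 arrays and -1.63 ± 0.31 with 9. Cldn2, a pore-forming claudin of the crypt, also separated the groups, at 5.13, 5.86, 6.21 and 5.80 against 6.42 to 7.29. It was the only 1 of 25 claudin and junction genes to do so. Of these 25 genes 17 were lower with 10 arrays (median -0.29) and 11 with 9 (median 0.08).

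Genes of ribosome building had lower means, close with 10 arrays to those of all bright probe sets. Of 35 ribosome biogenesis genes 32 were lower (median -0.66), and 30 with 9 arrays (median -0.32). In the brightest group, which holds the median FP-low level of the list (6.46), 92.5% of probe sets were lower with a median of -0.63, and 68.9% with a median of -0.17 with 9 arrays. Wdr75, which acts in early rRNA transcription and processing, was at 5.64, 6.39, 6.98 and 6.75 against 7.73 to 8.56 (median 7.83). All FP-high arrays lay clearly below, and the difference was -1.52 ± 0.27 and -1.26 ± 0.21. Snhg5, a host gene of small nucleolar RNAs, was at 6.11, 8.05, 8.52 and 7.72 against 9.24 to 9.59 (median 9.49) and had the smallest p with 9 arrays (difference -1.36 ± 0.17, limma adjusted p = 0.183). The tRNA synthetase Tars differed by -1.21 ± 0.31 and -0.96 ± 0.27.

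Lists of very bright genes also moved with replicate 1. The median of 23 cytosolic ribosomal proteins was -0.75 with 10 arrays and -0.18 with 9, against -0.63 and -0.17 for all probe sets of the brightest group. The median of 22 splicing genes was -0.78 and then -0.27, and that of 25 proteasome genes -0.85 and then -0.30. Snrpd1, a core spliceosome protein, still separated the groups without replicate 1, at 9.92, 10.07 and 9.61 against 10.20 to 10.94. Psma2, a proteasome core subunit, did so by less, at 9.16, 9.09 and 8.57 against 9.27 to 9.56. For 28 respiratory chain genes the median went from -0.57 to 0.02, and 12 of 28 were lower with 9 arrays.

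Stress, folding and sterol genes gave few separated members, all lower and equally many in both fits. These were 2 of 17 heat shock genes, 2 of 26 genes of endoplasmic reticulum stress and folding, and 1 of 26 of sterol and fatty acid synthesis. Of all probe sets, 1.51% and 1.82% separated on the lower side. Hsp90aa1, the inducible cytosolic chaperone, was at 8.96, 10.11, 9.99 and 10.09 against 10.37 to 10.82, with differences of -0.82 ± 0.23 and -0.54 ± 0.12. After scaling of the arrays to equal spread its 10-array difference was 0.07. Eif2ak3, a sensor of endoplasmic reticulum stress, differed by -0.66 ± 0.17 and -0.59 ± 0.16 with no overlap. Cyp51, a sterol synthesis enzyme, was at 5.55, 6.10, 6.36 and 6.07 against 6.70 to 7.19, while Fads1, a desaturase, overlapped. Of 26 sterol and fatty acid synthesis genes 24 were lower (median -0.53), and 20 with 9 arrays (median -0.21). The median FP-low level of this list was 6.30, within the brightest group of probe sets. In that group 92.5% were lower (median -0.63), and 68.9% with 9 arrays (median -0.17). The heat shock and endoplasmic reticulum lists, with median FP-low levels of 8.71 and 6.53, have to be read against the same group. Immediate early genes, which respond to handling and to growth signals within minutes, had 23 of 28 lower (median -0.28) and 20 with 9 arrays (median -0.23). Dusp1, a MAPK phosphatase, was at 5.59, 6.46, 5.25 and 5.39 against 6.12 to 7.77, and Atf3, a stress factor, at 5.43, 5.98, 5.41 and 4.93 against 5.08 to 7.41. Both genes overlapped, and FP-low replicate 6 was the lowest of its group in each.

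Most genes of DNA methylation had lower means, and Hells alone among them separated the groups. Of 20 DNA methylation writers, erasers and readers, 15 were lower in each fit, with medians of -0.42 and -0.14. Separation of 1 in 20 stands against 1.51% and 1.82% of all probe sets on the lower side. Hells, a remodeller needed for DNA methylation, was at 5.08, 5.95, 6.90 and 6.71 against 7.01 to 8.12 (median 7.61). Every FP-high array lay below every FP-low array. Uhrf1, which guides Dnmt1 to copied DNA, was at 4.58, 6.63, 6.88 and 6.43 against 6.88 to 8.04, and touched the FP-low range. Dnmt1, the maintenance methyltransferase, was at 5.38, 6.70, 7.33 and 7.23 against 7.29 to 7.70, with differences of -0.78 ± 0.33 and -0.36 ± 0.16.

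Among the de novo methyltransferases, Dnmt3a differed by -0.28 ± 0.23 with 10 arrays and -0.05 ± 0.19 with 9, and Dnmt3b by -0.11 ± 0.12 and -0.12 ± 0.11. Among the demethylating dioxygenases, Tet1 differed by 0.61 ± 0.30 and 0.30 ± 0.23, Tet2 by -0.41 ± 0.22 and -0.25 ± 0.21, and Tet3 by -0.24 ± 0.14 and -0.27 ± 0.14, all with overlap. Of 32 Polycomb and histone silencing genes, 25 were lower in each fit, with medians of -0.42 and -0.20. Setdb1, a methyltransferase for histone H3, was at 5.51, 5.66, 5.39 and 5.94 against 6.12 to 6.62 (median 6.38), and its difference hardly depended on replicate 1 (-0.76 ± 0.16 and -0.72 ± 0.16). Smarcc1, a core subunit of BAF remodellers, differed by -1.27 ± 0.28 and -1.04 ± 0.26, and the insulator protein Ctcf by -0.70 ± 0.20 and -0.51 ± 0.16, neither with overlap. The histone chaperone Nasp was at 6.56, 8.45, 8.76 and 8.62 against 9.08 to 9.47. Hmgb3, a chromatin protein, has 2 probe sets, which differed by -1.38 ± 0.22 and -0.96 ± 0.17 with 10 arrays and by -1.15 ± 0.16 and -0.83 ± 0.15 with 9, without overlap in either fit.

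Genes of digestion and absorption had higher means in FP-high samples, but the arrays of the groups overlapped. Of 19 brush border hydrolases 17 were higher with a median of 0.72, and 18 with 9 arrays, with a median of 1.06. Of 21 genes for lipid uptake and apolipoproteins 19 were higher (median 0.30), and all 21 with 9 arrays (median 0.80). Without FP-high replicate 3 the 10-array median of the lipid list was 0.03. An unadjusted p under 0.05 on the higher side was reached by 1 of the 19 hydrolases with 10 arrays, where 2.82% of all probe sets did, and by 6 with 9, against 2.92%. For the lipid list it was 0 and 7 of 21. Groups did not overlap on the higher side for 0 hydrolases in both fits, and for 0 and then 1 of the lipid genes, against 0.766% and 1.43% of all probe sets.

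The arrays differed widely within both groups for these genes. The mean deviation of the hydrolase list from its FP-low mean was -0.83, 1.05, 2.17 and 0.26 in FP-high replicates 1 to 4. In FP-low replicates 1 to 6 it was 0.78, 0.46, -0.62, 0.42, -0.13 and -0.91. FP-high replicates 2 and 3 lay above all FP-low arrays, while replicate 4 lay among them and replicate 1 near the lowest. Without FP-high replicate 3 the 10-array median of the list was 0.11, and with 9 arrays the lowest median when 1 more array was left out was 0.54.

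Sucrase-isomaltase, Sis, was at 7.39, 10.40, 10.82 and 10.01 against 5.54 to 10.40 (median 8.92), and aminopeptidase N, Anpep, at 5.05, 10.08, 11.22 and 7.55 against 4.99 to 9.79 (median 8.12). In both genes the FP-low arrays alone spanned more than 4 log2 units, and FP-high values lay mostly in the upper part of that span. Anpep was named only because its SD across FP-low arrays was among the largest, so its wide span was selected for. Sis, a fixed marker, also ranked among the genes with the largest such SD. Lactase, Lct, was at 5.76, 6.56, 8.99 and 4.86 against 4.26 to 6.13 (median 5.38). The nucleotide-cleaving enzyme Enpp3 was at 3.89, 7.53, 9.53 and 4.59 against 3.61 to 5.64. For both, FP-high replicates 2 and 3 were high and replicates 1 and 4 were not. Intestinal alkaline phosphatase, Alpi, differed by 0.89 ± 0.63 with 10 arrays and 1.51 ± 0.53 with 9.

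Fabp1 was at 11.56, 12.86, 12.81 and 12.17 against 9.78 to 12.45 (median 11.35), a difference of 1.09 ± 0.54 and 1.35 ± 0.57 with overlap. Cd36, a fatty acid receptor of the upper small intestine, was at 3.03, 4.25, 7.31 and 3.42 against 2.61 to 4.16 (median 3.10), so that its difference rested on replicate 3. Creb3l3, a transcription factor of lipid handling, was the lipid gene whose groups did not overlap with 9 arrays, at 5.65, 6.16 and 5.65 against 5.03 to 5.39, and replicate 1 lay below at 4.63. Krt20, a keratin of mature cells, was at 5.39, 9.87, 9.70 and 9.04 against 6.26 to 9.24 (median 7.13). In each of these 4 genes the FP-high mean was higher without replicate 1. Vil1, which bundles actin in microvilli, differed by 0.12 ± 0.75 and 0.99 ± 0.53, and the cytoskeletal gene Actb by -0.47 ± 0.64 with 10 arrays and 0.42 ± 0.21 with 9, both with overlap.

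Transporters and drug-metabolising enzymes also had higher means with overlapping arrays. Of 20 genes for sugar, peptide and amino acid uptake 13 were higher (median 0.16), and 18 with 9 arrays (median 0.55). Of 31 xenobiotic genes 25 were higher (median 0.39), and 28 with 9 arrays (median 0.99). Without FP-high replicate 3 both 10-array medians were below 0, at -0.07 for uptake and -0.12 for the xenobiotic list. Adenosine deaminase, Ada, was at 5.61, 7.43, 9.51 and 5.76 against 5.09 to 6.08, with replicates 2 and 3 far above. Slc28a2, a nucleoside transporter, was at 4.69, 4.87, 5.62 and 4.84 against 4.06 to 4.72. The cytochrome gene Cyp2c55 was at 5.11, 7.76, 8.48 and 7.55 against 4.88 to 7.15 (median 5.36) and separated the groups without replicate 1 (2.33 ± 0.48). Fmo5, a flavin monooxygenase, did so as well (1.99 ± 0.44), and Cyp2d26, at 4.73, 7.72, 8.69 and 5.58 against 5.09 to 6.04, did not because of replicate 4. Cyp2c55 and Fmo5 were named among all genes for separating with 9 arrays, so their separation was selected for. Of the 31 xenobiotic genes, 0 separated on the higher side with 10 arrays and 1 with 9. These counts lie near the shares of all probe sets, 0.766% and 1.43%.

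Of 19 retinoid genes 15 were higher in each fit, with medians of 0.19 and 0.17. Of 19 genes of the proximal intestine 15 were higher (median 0.22), and 16 with 9 arrays (median 0.67), while for 21 genes of the distal intestine it was 11 (median 0.04) and then 14 (median 0.13). Aldh1a1, which makes retinoic acid, was at 5.01, 8.11, 8.86 and 7.97 against 4.42 to 7.46 (median 6.62). Rdh7, a retinol dehydrogenase, was at 4.71, 6.84, 8.51 and 7.46 against 4.29 to 7.10. Aldh1a2, a related enzyme that was dim here, was at 4.08, 3.52, 3.47 and 3.64 against 2.99 to 3.31, with no overlap in either fit. Gata4, a transcription factor of the proximal small intestine, was at 5.95, 6.53, 6.26 and 6.30 against the narrow range of 6.01 to 6.13, and Slc51b, a bile acid exporter that is highest distally, at 4.87, 8.51, 8.57 and 6.59 against 3.91 to 7.06. Where along the intestine each crypt was taken is not given in the sources used here, and its part in these values was not tested.

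**Figure D4:**
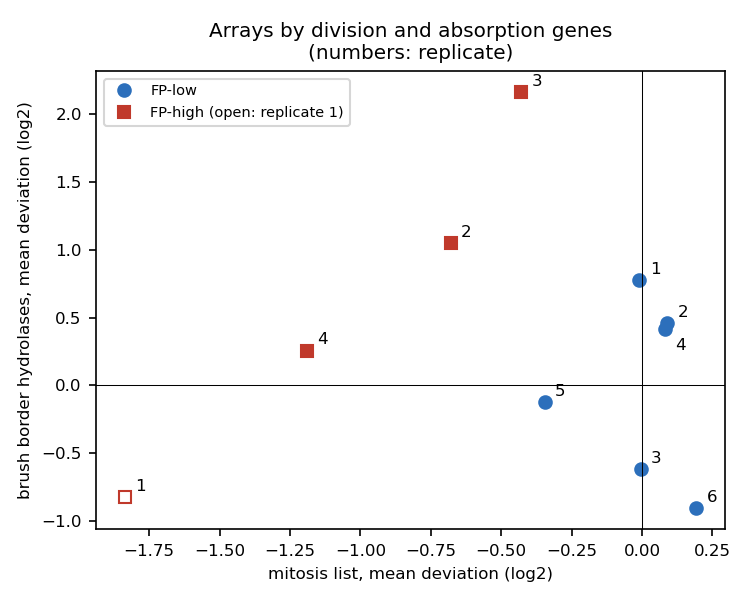
Each point is 1 array, placed by the mean deviation (log2) of the mitosis list on the horizontal axis and of the brush border hydrolase list on the vertical axis, with replicate numbers beside it. The 4 FP-high arrays (squares, replicate 1 open) all lie to the left of the 6 FP-low arrays (circles), while the groups overlap vertically.

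The lists for division and absorption ordered the FP-low arrays differently, but the 4 FP-high arrays had the same order in both. From low to high this was replicates 1, 4, 2 and 3. Their SD over probe sets rose in the same order, at 1.11, 1.75, 1.82 and 1.89, and its part in this was not tested. FP-low replicates 3 and 6 had the lowest hydrolase means of their group (-0.62 and -0.91) and mitosis deviations of -0.005 and 0.19. FP-high replicate 4 had a hydrolase deviation of 0.26, within the FP-low range, and a mitosis deviation of -1.19. FP-high replicate 3 was the highest for hydrolases (2.17) and the closest to FP-low for mitosis (-0.43).

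No Paneth or goblet cell gene separated the groups in either fit. With so few genes this does not set them apart from all probe sets. Of those, 2.27% separated in either direction with 10 arrays and 3.25% with 9. The median of 14 Paneth cell genes was -0.56 with 10 arrays and -0.11 with 9, and that of 22 goblet cell genes was -0.43 and -0.01. Lyz1 was at 8.75, 13.08, 12.85 and 12.10 against 12.52 to 13.39 (median 13.16). The mucin Muc2 was at 4.86, 9.49, 9.07 and 8.41 against 8.24 to 9.88 (median 9.03), a difference of -1.02 ± 0.77 with replicate 1 and 0.02 ± 0.35 without it. In both genes 3 FP-high arrays lay in or near the FP-low range and replicate 1 far below.

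Of 26 enteroendocrine genes 16 were higher and 10 lower (median 0.08), and with 9 arrays 12 and 14 (median -0.03). Within the list Chga, a granule protein of endocrine cells, was at 4.45, 5.54, 5.43 and 5.59 against 5.59 to 6.37, without overlap but with replicate 4 at the lowest FP-low value to 2 decimals. The hormone gene Sst ran the other way, at 5.11, 4.63, 6.47 and 6.23 against 4.36 to 4.93, and overlapped through replicate 2. Tuft cell genes had a median of 0.14 and 0.08, and it was -0.02 after quantile normalization of the 10 arrays. Their member Alox5, a leukotriene enzyme, differed by 0.31 ± 0.13 and 0.33 ± 0.13, and the tuft cell kinase gene Dclk1 by -0.12 ± 0.31 and 0.19 ± 0.24. The hormone gene Gip was at 5.74, 6.55, 10.44 and 6.49 against 5.46 to 10.20. FP-high replicate 3 and FP-low replicates 1, 4 and 6 (9.98, 8.36 and 10.20) lay well above the other arrays. Gip was named for its large SD across FP-low arrays, so this scatter was selected for. The cell cycle inhibitor Cdkn2a differed by 0.27 ± 0.20 and 0.04 ± 0.12.

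Markers of immune cells were dim, and most had slightly higher means in FP-high samples, as did most probe sets of their level. The median FP-low levels of the T cell and macrophage lists were 4.20 and 3.71. Of all probe sets at 3.42 to 4.27, 18.4% were lower with 10 arrays (median 0.17) and 33.6% with 9 (median 0.06). Of 23 T cell and intraepithelial lymphocyte genes 22 were higher (median 0.30), and 18 with 9 arrays (median 0.17). The mean level of the list was 4.51, 4.32, 4.81 and 4.44 in FP-high samples and 3.82 to 4.52 in FP-low samples, so only replicate 3 lay above the FP-low range. Nkg7, a granule gene of cytotoxic cells, was at 5.55, 4.58, 6.14 and 4.27 against 3.79 to 4.27, and Klrd1, a receptor of such cells, at 4.10, 5.48, 3.50 and 4.79 against 2.70 to 4.42. The 2 genes were high in different FP-high arrays. Of 23 macrophage and neutrophil genes 20 were higher in each fit (median 0.26 and 0.13), with mean levels of 4.05 to 4.28 against 3.78 to 4.06. Tyrobp, an adaptor of myeloid and killer cell receptors, was at 5.87, 4.58, 6.66 and 6.22 against 3.87 to 5.42. The part of immune cells in the other differences was not tested. Oas3, an interferon-induced gene, was at 4.88, 4.72, 4.11 and 4.16 against 3.64 to 4.02, without overlap. Of 26 interferon-stimulated genes 16 were higher (median 0.11), and 15 with 9 arrays (median 0.14). Only Oas3 separated with 10 arrays, and with 9 arrays 1 gene did on each side. On the higher side 0.766% and 1.43% of all probe sets separated. Markers of fibroblasts, endothelium and smooth muscle had medians of 0.18, 0.12 and 0.19 with 10 arrays and 0.08, 0.04 and 0.06 with 9.

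Among the lower genes with the smallest p, several have no place in the lists above. Zdhhc2, a palmitoyltransferase, was at 4.10, 4.51, 4.80 and 3.93 in FP-high samples and at 5.32 to 6.55 (median 6.41) in FP-low samples. Only FP-low replicate 3 came near the FP-high arrays, and the difference was -1.91 ± 0.27 with 10 arrays (limma, adjusted p = 0.147) and -1.83 ± 0.29 with 9 (adjusted p = 0.206). Fam111a, a protease that acts at replication forks, was at 3.87, 4.08, 4.42 and 4.07 against 5.49 to 7.30 (median 6.49), the FP-low arrays being far more spread than the FP-high ones. Tbpl1, a relative of the TATA-binding protein, was at 5.25, 6.08, 6.03 and 5.32 against 6.92 to 7.41.

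Pgm2l1, a sugar phosphate enzyme, was at 5.29, 5.04, 5.40 and 4.50 against 6.03 to 6.27, and Kbtbd6, a substrate adaptor of a ubiquitin ligase, at 4.00, 3.95, 3.92 and 4.08 against 4.68 to 5.22. Both genes had all FP-high arrays below a narrow FP-low band. Tfb1m, a mitochondrial rRNA methyltransferase, was at 5.31, 4.52, 4.22 and 4.09 against 5.29 to 6.41. Its groups did not overlap with 9 arrays (-1.58 ± 0.23), and replicate 1 just reached the lowest FP-low value.

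The higher genes with the smallest p with 10 arrays were mostly dim. Rab30, a small GTPase of the Golgi, was at 4.92, 6.56, 4.93 and 5.14 against 3.15 to 4.34 (median 3.82), a difference of 1.62 ± 0.35 with 10 arrays and 1.78 ± 0.37 with 9. Nr1h3, the oxysterol receptor LXR alpha, was at 5.59, 5.02, 5.12 and 5.32 against 4.44 to 4.91, and replicate 1 was the highest. Zc3h6, a zinc finger gene, differed by 0.82 ± 0.17 and 0.90 ± 0.17. The olfactory receptor Olfr180 (0.69 ± 0.14), the chemokine Ppbp (0.52 ± 0.14), Cyria (0.87 ± 0.22), the histamine receptor Hrh4 (0.58 ± 0.15) and H2-M10.6 (0.54 ± 0.13) all had FP-low medians of 3.08 or less. With 9 arrays Cyria stood at 0.63 ± 0.15, so replicate 1 added to its difference, as it did for H2-M10.6 (0.48 ± 0.12).

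With 9 arrays, larger differences appeared on the higher side. Spink1, a trypsin inhibitor, was at 12.03, 12.14 and 11.95 in FP-high replicates 2 to 4 against 8.89 to 11.34 (median 10.16), and replicate 1 was at 9.03. Nat8f5, an acetyltransferase gene, was at 6.00, 7.37 and 5.73 against 3.36 to 4.89, with replicate 1 at 3.96. Chd7, a chromatin remodeller, was at 6.00, 6.65 and 8.0 against 4.29 to 5.56, with replicate 1 at 4.64. It differed by 1.95 ± 0.41. Iscu, the scaffold for iron-sulfur clusters, differed by 1.17 ± 0.24, Tmed8 by 0.68 ± 0.13 and Faah, a fatty acid amide hydrolase, by 0.58 ± 0.12. In each of these genes replicate 1 lay within the FP-low range or below it. Stk17b, a kinase linked to cell death, showed this most plainly, at 8.31, 9.19 and 9.21 against 6.83 to 8.01, with replicate 1 at 4.30. Its difference was 1.53 ± 0.29 without replicate 1 and 0.38 ± 0.83 with it.

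Spread and sex-linked transcripts are given last, since they touch every value above. The median SD over tested probe sets was 0.24 among the 6 FP-low arrays, 0.45 among all 4 FP-high arrays and 0.22 among FP-high replicates 2 to 4. Xist, the RNA that coats the inactive X chromosome of female cells, was at 8.64 in FP-high replicate 4 and 8.74 in FP-low replicate 6, and at 2.34 to 3.61 in the other 8 arrays. The Y-linked gene Eif2s3y was lowest in these same arrays, at 2.25 and 2.07. The 2 groups thus each held 1 array of this kind. With both left out, limma again called 0 probe sets (1614 at an unadjusted p under 0.05).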

How the data were processed

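The authors deposited log2 values for 35556 probe sets on each array. They came from Affymetrix Command Console, per the design text, and from Expression Console and Transcriptome Analysis Console, per the submitters' processing notes. The sources used here name neither program versions nor the method of normalization, and the values themselves show the log2 scale. The 21789 probe sets with 1 gene symbol in the platform annotation (21698 matched to RefSeq by Entrez ID) were tested, and 12146 without a symbol and 1621 with several were left out.

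FP-high minus FP-low was fitted on the deposited values with limma 3.58.1 in R 4.3.3 (lmFit, eBayes, two-sided), once with 10 arrays and once with the 9 without FP-high replicate 1. The Benjamini-Hochberg adjustment ran over all tested probe sets, with a threshold of 0.05. No filter, further normalization or covariate was used. The fits were tested on simulated data with known changes. The 67 gene lists used the brightest probe set of a gene. Lists are described by counts and medians, with no test. The members and lists were chosen with earlier results of these data known.

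Genes were named by rule. The first were the 10 lower and 10 higher with the smallest p in each fit among those whose groups did not overlap. To these came the 8 with the largest 9-array differences on each side, and a fixed set of markers. Each list gave up to 4 members with the smallest p and a stable sign. The 8 genes with the largest SD among FP-low arrays and the 8 among FP-high replicates 2 to 4 were also taken. A part of the genes named by rule is printed, and members that make up a count were named after their values were seen. Alternatives were leaving out each array, quantile and scale normalization, array weights, a filter by level, all probe sets, the brightest probe set per gene, a trended robust fit, adenoma arrays in the fit and the replicate number as a block. The number of arrays limits the precision. Promoters of 300 bases came from RefSeq (GRCm38.p6), and 15614 of 19938 measured genes had one.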

Additional observations from a re-analysis of the deposited data

Results flagged for a closer look

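In groups of 4 or 6 arrays, a single array was marked where its gap to the nearest other array was a large part of the whole range (Dixon's bound, 0.829 for 4 arrays and 0.625 for 6). Chance marks about 1 in 20 groups. Here 29 of 262 groups were marked, 13 of them by FP-high replicate 1, the array with compressed values.

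FP-high replicate 1 was marked as the lowest of its group in Hmgb3 (5.91), Spink1 (9.03), Nasp (6.56), Olfm4 (6.61), Chga (4.45) and Hsp90aa1 (8.96), and as the highest in H2-M10.6 (3.00). It was also marked as the lowest in the mean level of 6 lists: G1 and S phase regulators (4.77), ribosomal proteins (8.41), splicing (6.74), sterol and fatty acid synthesis (5.0), goblet cell (5.04) and Polycomb and histone silencing (5.21). In many other lists, such as mitosis (5.26) and proteasome (6.24), it was the lowest of its group without passing the bound.

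Among the other FP-high arrays, replicate 2 was the highest in Rab30 (6.56) and the lowest in the enteroendocrine list (4.57). Replicate 3 was the highest in Chek1 (6.09). Replicate 4 was the highest in Xist (8.64) and the lowest in Tet3 (4.06), where the other 3 arrays lay at 4.42.

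Among FP-low arrays, replicate 1 was the highest in Tbpl1 (7.41) and the lowest in Myc (7.09) and in the Wnt target list (5.26). Replicate 3 was the lowest in Zdhhc2 (5.32), and replicate 5 in the mitosis list (6.75). Replicate 4 was the highest in Kbtbd6 (5.22), Epcam (9.58), the ribosome biogenesis list (7.12) and the DNA methylation list (6.23). Replicate 6 was the highest in Xist (8.74) and the lowest in Eif2s3y (2.07).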

How the results depend on the processing

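The count of called probe sets depended on single arrays. With 10 arrays it was 0, and it ranged from 0 to 15 when each array was left out in turn. Dropping FP-high replicate 3 gave 15 calls, all lower, dropping FP-high replicate 2 gave 5 and dropping FP-low replicate 3 gave 1. With 9 arrays it was 0, and ranged from 0 to 7. Dropping FP-high replicate 3 gave 7 calls, all lower, and dropping FP-low replicate 3 gave 2. Each other array left out gave 0. Array weights, which gave FP-high replicate 1 a weight of 0.08, gave 3 calls with 10 arrays (Hmgb3, Knl1 and Zdhhc2, all lower) and 0 with 9. The other alternatives gave 0, with smallest adjusted p from 0.058 to 0.335 and, for the block, as below. Scale normalization of the 10 arrays raised the share of lower probe sets from 43.5% to 53.5%, and quantile normalization raised it to 51.1%.

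Of 107 genes given with values under each alternative, 96 kept their sign in all that were run. Many of the 107 were named by rules that asked for separated groups or for a sign kept with each array left out. This count was therefore in part set in advance and is no measure of stability. The 11 genes that changed sign follow, each with its range when 1 array was left out where that range crosses 0. Muc2 stood at 0.021 with array weights and at 0.05 with quantile normalization of the 9 arrays, and its values with 1 array left out ran from -1.53 to 0.016. Hsp90aa1 stood at 0.071 after scaling. Apc stood at 0.13 (quantile), 0.082 (scale) and 0.088 (9 arrays and quantile), and ran from -0.214 to 0.031 with 1 array left out. Ctnnb1 stood at 0.115 with 9 arrays and quantile normalization and ran from -0.767 to 0.037. Xist ran from -0.63 to 1.753, and Epcam stood at 0.11 (quantile) and 0.106 (scale). Stk17b ran from -0.112 to 1.526 and stood at -0.221 without the arrays high in Xist. Dclk1 ran from -0.274 to 0.193 and stood at 0.187 (array weights), 0.129 (replicate block) and 0.16 (9 arrays and quantile). Gip ran from -1.263 to 0.317 and stood at 0.082 (quantile), 0.023 (scale), 0.588 (without the arrays high in Xist) and 0.379 (9 arrays and quantile). Actb ran from -0.876 to 0.419 and stood at 0.314 (array weights), 0.045 (quantile), 0.428 (scale) and 0.427 (9 arrays and quantile). Vil1 ran from -0.423 to 0.989 and stood at -0.286 with the replicate block. The cause was not tested. Over 375 pairs of a list and a setting, the median moved by more than 1 SD in 45.

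The replicate numbers share no stated animal. Arrays of the same number deviated from their group means with correlations of -0.376, 0.17, -0.295 and 0.089, not all over 0.1. None correlated best with its own number, and the numbers were not taken as pairs. The FP-high mean included the compressed replicate 1, and the check was not run without it, so it cannot settle whether pairs exist. With the replicate number as a block 0 probe sets were called (smallest adjusted p 0.781 with 10 arrays and 0.713 with 9). The median of the mitosis list was -1.04 with this block. Depth cannot be given for arrays.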
